A study of Mus musculus with 9 samples.

Results

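Interferon-stimulated genes are the genes that cells switch on when interferon reaches its receptors, and they were followed here by name in nuclei of the mouse heart after ischemia-reperfusion injury. The set is a list of 49 genes given by symbol. Of these, 47 were measured, among 32285 genes in all. Mx1 and Mx2 are not analysed here.

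Interferons bind receptors that activate JAK kinases, and the signal passes to a factor that contains STAT2 and IRF9 and binds the interferon-stimulated response element of its target genes. Many of the products act against viruses: sensors such as the helicases bind foreign RNA, the OAS enzymes make a signal that activates an RNase, IFIT proteins bind viral RNA, and guanylate-binding and immunity-related GTPases attack intracellular microbes. In uninjured tissue a low level of interferon signalling keeps many of these genes expressed. TLR7, the target of the drug used in this study, is an endosomal receptor for single-stranded RNA that signals through MYD88 and can lead to interferon production.

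The samples were 9 libraries of single nuclei from hearts of male wild-type mice, 9 to 10 weeks old, in 3 groups of 3. NS-Sham mice had a thoracotomy only and received normal saline (NS). NS-I/R mice had the left anterior descending coronary artery occluded for 45 min and reperfused for 24 h, and received saline. Enpa-I/R mice had the same injury and received enpatoran, a TLR7 antagonist, at 5 mg/kg per injection. All mice had 2 intraperitoneal injections, the first 1 h before ischemia. The labels disagree on the second: one text puts it 2 h later, the other directly after ischemia. No group had sham surgery with enpatoran, so the drug's action in uninjured hearts was not measured. The libraries are labelled as replicates without a statement that each came from its own animal, so p-values measure the spread between libraries.

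Response elements are printed first because they are what these genes are known to share, and the list of symbols did not use them. The element's core was searched as GAAA, any 2 bases and GAAA, which reads as TTTC, any 2 bases and TTTC on the other strand, and both strands were searched. RefSeq promoter windows of build GRCm38.p6 (250 bases before to 50 after each transcript start) were at hand for 39 of the 49 listed genes. The motif was found for 22 of the 39 (56.4%), against 3.99% of 27025 genes with a window. Within the last 120 bases before the start it was found for 15 of the 39 (38.5%), against 1.41% of all genes. The 120 bases before the start are shown for 9 members whose levels are described below, 5′ to 3′ on the gene's strand, with each motif match in capitals. Overlapping matches run together, as in Isg15 and Gbp3.
Ifi203: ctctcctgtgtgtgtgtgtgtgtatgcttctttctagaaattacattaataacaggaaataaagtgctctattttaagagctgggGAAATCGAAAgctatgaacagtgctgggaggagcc
Ifi206: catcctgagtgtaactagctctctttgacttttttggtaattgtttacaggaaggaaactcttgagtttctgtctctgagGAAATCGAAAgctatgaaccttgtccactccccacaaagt
Ifi207: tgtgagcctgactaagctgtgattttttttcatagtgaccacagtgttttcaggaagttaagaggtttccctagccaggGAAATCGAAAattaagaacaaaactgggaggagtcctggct
Ddx60: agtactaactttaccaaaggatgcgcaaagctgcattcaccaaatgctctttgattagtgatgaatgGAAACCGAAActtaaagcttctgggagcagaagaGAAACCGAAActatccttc
Oas1a: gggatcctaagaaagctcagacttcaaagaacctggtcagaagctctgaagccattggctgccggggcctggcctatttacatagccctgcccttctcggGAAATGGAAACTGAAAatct
Isg15: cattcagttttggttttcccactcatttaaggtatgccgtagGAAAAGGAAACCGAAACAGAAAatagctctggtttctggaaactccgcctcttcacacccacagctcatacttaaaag
Gbp3: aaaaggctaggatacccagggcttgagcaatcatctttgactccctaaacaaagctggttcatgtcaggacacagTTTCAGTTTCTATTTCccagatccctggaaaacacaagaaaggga
Gbp7: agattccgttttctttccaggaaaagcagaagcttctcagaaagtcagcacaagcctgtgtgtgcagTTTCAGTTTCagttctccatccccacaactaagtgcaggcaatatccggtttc
Igtp: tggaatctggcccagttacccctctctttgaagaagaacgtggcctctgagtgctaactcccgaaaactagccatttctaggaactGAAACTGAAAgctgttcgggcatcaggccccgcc

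These windows lie at chr1:173942493-173942612 (Ifi203, minus strand), chr1:173491319-173491438 (Ifi206, minus), chr1:173741810-173741929 (Ifi207, minus), chr8:61927967-61928086 (Ddx60, plus) and chr5:120907526-120907645 (Oas1a, minus). Those of Isg15 at chr4:156200819-156200938 (minus), Gbp3 at chr3:142559924-142560043 (plus), Gbp7 at chr3:142530216-142530335 (plus) and Igtp at chr11:58199436-58199555 (plus) complete the set. Ifi203 and Gbp3 each have 2 RefSeq windows, of which 1 is shown. Ifi203, Ifi206 and Ifi207 are neighbours on chromosome 1 and carry the same 10 letters, GAAATCGAAA, at a similar distance from the start. As described below, Ifi203 was called lower after injury in 5 fits and Ifi207 higher in 4. A match is a description of the sequence, and no binding was measured.

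The deposited libraries held 19651794 to 38970153 UMIs (unique molecular identifiers, each standing for 1 captured RNA), and 3155 to 6448 nuclei per library passed the filters. Nuclei were clustered without the members and sorted into classes by marker genes, which gave 11357 endothelial-like, 9397 cardiomyocyte-like, 8626 fibroblast-like, 3350 macrophage-like and 3211 pericyte-like nuclei. Levels are CPM, counts per 1000000 UMIs summed per library and class, and ± is the SD of 3 libraries. Changes are log2 fold changes ± SE from edgeR's quasi-likelihood test over all genes, with Benjamini-Hochberg adjusted p-values and a threshold of 0.05. The fits scale libraries by TMM (trimmed mean of M-values), while the CPM printed are unscaled. Any 2 libraries shared 5 to 20 barcodes, at most 0.343% of the smaller.

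Of the NS-I/R libraries, replicate 3 had the highest summed member level in endothelial-like nuclei, at 2043 CPM. Replicate 1 had 1700 CPM and replicate 2 had 1432 CPM. In fibroblast-like and pericyte-like nuclei replicate 3 had the lowest, at 1129 and 1145 CPM. Counts of members in the comparisons with enpatoran are given with and without NS-I/R replicate 3. It was picked by member levels, so the counts without it lend the enpatoran difference no support. Neutrophil-like nuclei made up 0.0294% to 0.0310% of the nuclei of sham libraries, 7.79% to 10.8% after injury and 1.33% to 5.04% with enpatoran. Transcripts of neutrophil markers also had higher levels in the other classes. Summed over 7 markers they were at 0.921 to 1.58 CPM in endothelial-like nuclei of NS-Sham, with 1 to 4 of the 7 detected, at 89.6 to 225 CPM in NS-I/R, with all 7 detected, and at 41.8 to 55.2 CPM in Enpa-I/R, with 6 to 7 detected. Summed over 8 cardiomyocyte markers, the same nuclei had 4901 to 5575, 2457 to 2893 and 3192 to 4511 CPM. The part of this background in the member results was not tested.

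In sham hearts the members were highest in endothelial-like and macrophage-like nuclei. Summed over the 47 genes, macrophage-like nuclei had 3979 ± 561 CPM and endothelial-like nuclei 3819 ± 179 CPM, while pericyte-like nuclei had 1256 ± 54.9 CPM and cardiomyocyte-like nuclei 211 ± 13 CPM. Among the 5 classes, the highest mean level of a gene was in endothelial-like nuclei for 29 members, in macrophage-like nuclei for 17 and in fibroblast-like nuclei for 1, Ifi27. Against cardiomyocyte-like nuclei of the same libraries, 44 of the 45 members tested were higher in endothelial-like nuclei, where 33.6% of all genes were called higher. The exception was Parp9, the partner of the ubiquitin ligase Dtx3l, at 80.9 ± 11.2 CPM in endothelial-like and 54 ± 5.4 CPM in cardiomyocyte-like nuclei. Its TMM-scaled difference was -0.05 ± 0.13 (edgeR adjusted p = 0.728).

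**Figure D1:**
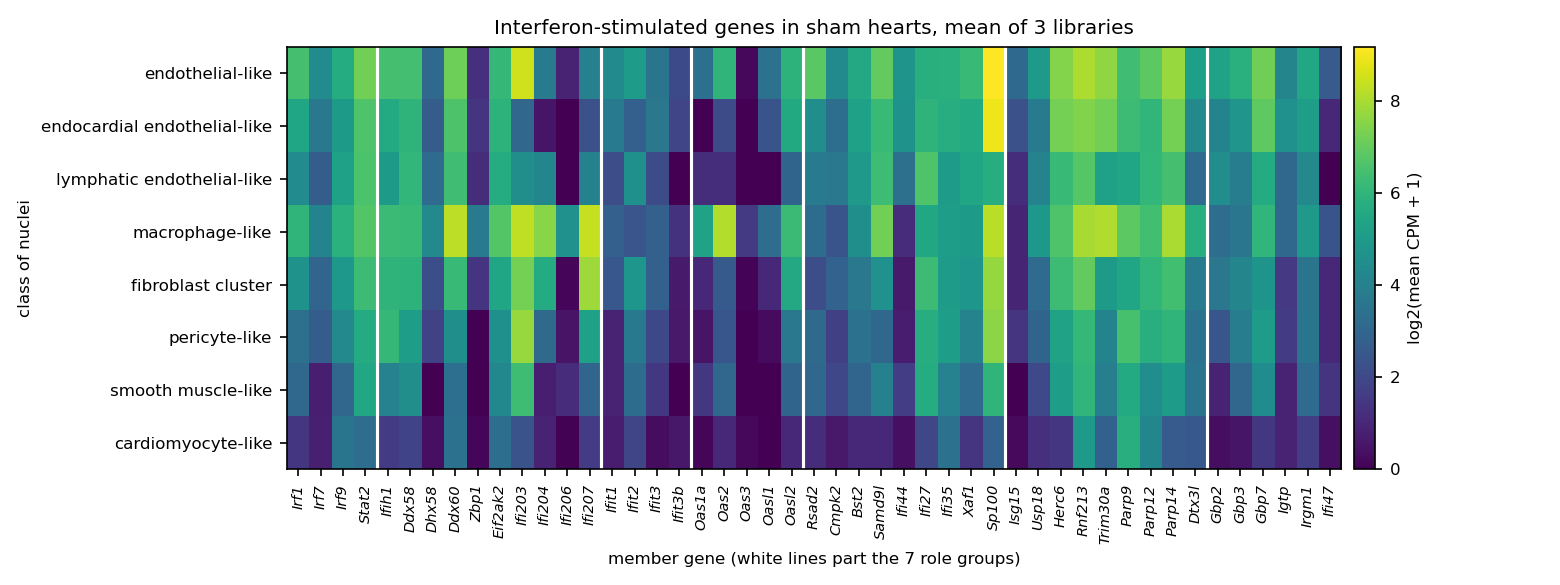
Level of each of the 47 members in NS-Sham, as log2 of the mean CPM plus 1 over 3 libraries, for 8 cell classes. Each column is a gene and is read downwards, since levels of different genes are not scaled by length; the row of cardiomyocyte-like nuclei is dark for most genes and Parp9 is its brightest cell.

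Some members differed between endothelial-like and macrophage-like nuclei. Of 45 members tested, 19 were higher in endothelial-like nuclei (20.8% of all genes were) and 11 in macrophage-like nuclei (22.8%). The 11 are near the share of all genes, and the rest of the 45 did not differ by this test. The antiviral enzyme viperin, encoded by Rsad2, was at 88.4, 123 and 129 CPM in endothelial-like nuclei of NS-Sham replicates 1 to 3, against 4.59, 15 and 5.51 CPM in macrophage-like nuclei (log2 difference 3.57 ± 0.27). Ifi44 was at 29.5, 23.6 and 24.2 CPM against 0, 0.935 and 2.76 CPM. The groups of 3 did not overlap for either gene. In the other direction, Oas2, one of the enzymes that make 2′-5′-linked oligoadenylates, was at 66.3, 66.9 and 55.7 CPM in endothelial-like nuclei and 296, 258 and 276 CPM in macrophage-like nuclei (log2 difference -2.04 ± 0.14). The DNA-binding PYHIN proteins Ifi204 and Ifi207, the helicase Ddx60, Oas1a and the nucleic acid sensor Zbp1 were also higher in macrophage-like nuclei. Rsad2, Ifi44, Oas2 and the genes of this last sentence were chosen after their values were seen.

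Fibroblast-like and pericyte-like nuclei were below endothelial-like nuclei for most members. The endothelial-like level was higher for 38 and lower for 3 of 45 members against fibroblast-like nuclei (25% and 27% of all genes), and higher for 37 and lower for 1 against pericyte-like nuclei (20.3% and 19%). Ifi207 was the gene that was lower in endothelial-like nuclei in both. Its NS-Sham level was 15.1 ± 4.84 CPM in endothelial-like, 37.1 ± 10.2 CPM in pericyte-like, 211 ± 35 CPM in fibroblast-like and 330 ± 44.5 CPM in macrophage-like nuclei. Its neighbour Ifi203 had another order, with 366 ± 24.3 CPM in endothelial-like, 310 ± 37 CPM in macrophage-like, 213 ± 14.1 CPM in pericyte-like and 142 ± 3.22 CPM in fibroblast-like nuclei. Members of the PYHIN, OAS, guanylate-binding and IFIT families have near-identical copies, and how reads of such copies were counted is not given in the sources used here, so their levels are uncertain to that extent.

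The set was lower after injury in endothelial-like nuclei. The NS-Sham libraries summed to 3631 to 3988 CPM, those of NS-I/R to 1432 to 2043 CPM and those of Enpa-I/R to 2215 to 2776 CPM, so that the 3 groups did not overlap. Of the 43 members that passed the low-count filter, 37 were lower in NS-I/R than in NS-Sham, where 17.1% of all genes were called lower. None was higher by edgeR's adjusted p (18.4% of all genes were), 1 was at an unadjusted p under 0.05, and DESeq2 called 0. The median log2 change was -1.39 over the 43 members and 0.02 over all genes tested. A gene with few UMIs after injury passes the filter through its sham level, so the untested members bear on the count as well: Ifi206, Oas3, Zbp1 and Ifit3b are not among the 43.

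**Figure D2:**
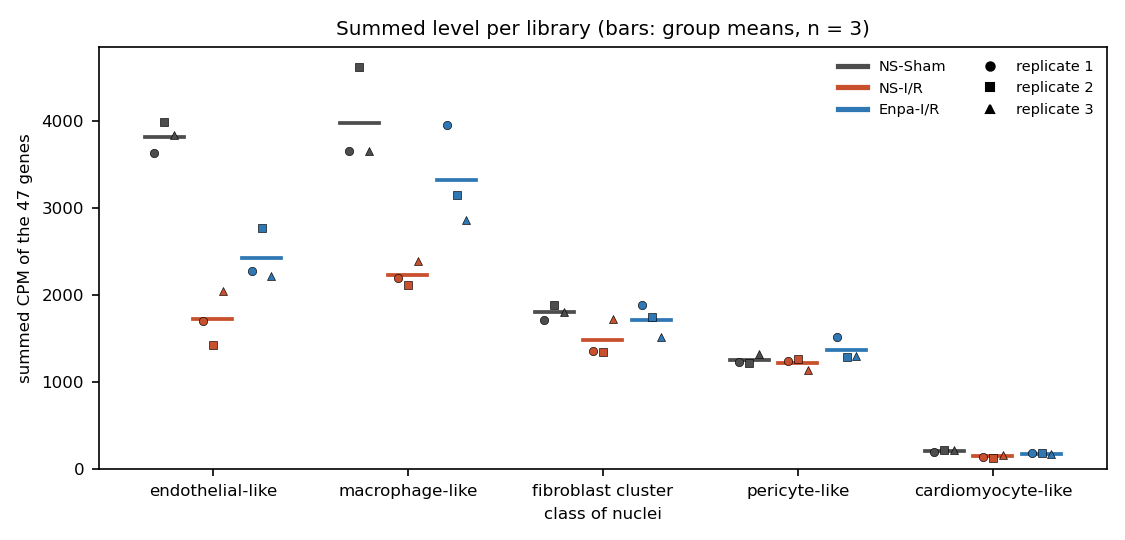
Summed CPM of the 47 members in each library, by cell class, with 1 point per library, coloured by group. In endothelial-like nuclei the NS-Sham points lie between 3631 and 3988 CPM, the NS-I/R points between 1432 and 2043 CPM and the Enpa-I/R points between 2215 and 2776 CPM, whereas the pericyte-like points overlap.

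Ifi203 had the largest fall in endothelial-like nuclei among the called members with a mean of at least 10 CPM. Its level was 386, 374 and 339 CPM in NS-Sham replicates 1 to 3, 43.5, 25.9 and 107 CPM in NS-I/R, and 123, 179 and 143 CPM in Enpa-I/R. All sham values were above all others, and all Enpa-I/R values were above those of NS-I/R, with replicate 3 closest. The change was -2.74 ± 0.34 after injury (edgeR adjusted p = 5.1e-05) and 1.39 ± 0.34 with enpatoran (adjusted p = 0.0297), and Enpa-I/R remained below sham by -1.35 ± 0.31 (adjusted p = 0.0119). Without any one of NS-I/R replicates 1 and 2 or Enpa-I/R replicates 1 to 3, the enpatoran difference of Ifi203 no longer passed, and without Enpa-I/R replicate 1 or 3 its difference from sham did not.

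The interferon-inducible GTPases, which act on the membranes around intracellular pathogens, were lower after injury for 5 of 6 members in endothelial-like nuclei (17.1% of all genes were called lower). Gbp7 was at 118, 167 and 152 CPM in NS-Sham, 43.9, 33.3 and 36.7 CPM in NS-I/R, and 46, 76.3 and 44.8 CPM in Enpa-I/R. Its injury change was -2.03 ± 0.21 (edgeR adjusted p = 1.17e-05). The Enpa-I/R values of Gbp7 were each above each NS-I/R value, the closest being 44.8 and 43.9 CPM. With enpatoran the difference from NS-I/R was 0.59 ± 0.22 (adjusted p = 0.106) and that from NS-Sham -1.44 ± 0.20 (adjusted p = 0.000469). Gbp3 was at 31.3, 59.9 and 75.6 CPM in sham, 15.5, 9.46 and 11.5 CPM in NS-I/R, and 18.1, 21.5 and 14.9 CPM in Enpa-I/R. Its Enpa-I/R range overlapped that of NS-I/R and lay wholly below sham. Igtp, an immunity-related GTPase, fell from 9.67, 19.5 and 21.5 CPM to 5.29, 1.23 and 3.67 CPM and was at 6.97, 8.53 and 1.71 CPM with enpatoran. None of the 6 GTPases was called higher in Enpa-I/R than in NS-I/R by edgeR (3.35% of all genes were), 1 was at an unadjusted p under 0.05, and DESeq2 called 0. Whether the GTPases differed from the other roles in their enpatoran change was not tested. Against sham, 5 of the 6 were still lower in Enpa-I/R (5.43% of all genes were).

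The 4 transcription factors of the response were lower after injury in endothelial-like nuclei (17.1% of all genes were), by -1.93 ± 0.38 for Irf7, -0.88 ± 0.16 for Irf1, -0.76 ± 0.21 for Irf9 and -0.69 ± 0.13 for Stat2. Irf7, which drives interferon genes downstream of sensors including TLR7, was at 21.6, 22.6 and 16.8 CPM in NS-Sham, 6.1, 1.64 and 9.62 CPM in NS-I/R, and 10.1, 13 and 16.2 CPM in Enpa-I/R. The Enpa-I/R values were each above each NS-I/R value, and the test gave 1.23 ± 0.40 (edgeR adjusted p = 0.0767). Irf1, a factor that responds to interferon-gamma as well, was at 80.6, 83 and 98.7 CPM, then 47.6, 48.1 and 55 CPM, then 57.1, 68.2 and 43.5 CPM. Here the enpatoran libraries straddled those of NS-I/R. Stat2, a subunit of the factor that binds the response element, was at 124, 152 and 166 CPM, 98.9, 91.3 and 102 CPM, and 103, 121 and 101 CPM. Irf9, its DNA-binding partner, was at 45.1, 51.6 and 54.1 CPM, 31.3, 23.8 and 39.9 CPM, and 43.1, 45.8 and 26.9 CPM, and its injury call was lost without NS-I/R replicate 2. With enpatoran none of the 4 was called higher by edgeR (3.35% of all genes were), 1 was at an unadjusted p under 0.05, and DESeq2 called 0.

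The other roles moved as follows in endothelial-like nuclei. All 9 members of the ISG15, ubiquitin and ADP-ribose enzyme group were lower after injury, as were 8 of 9 antiviral effectors, 3 of 3 IFIT genes tested, 3 of 4 OAS genes and 5 of 8 sensors. Of all genes, 17.1% were called lower there. Isg15, which encodes the ubiquitin-like modifier of that group, was at 5.53, 7.30 and 10.5 CPM in NS-Sham, 2.44, 1.23 and 3.67 CPM in NS-I/R, and 5.07, 6.73 and 3.84 CPM in Enpa-I/R. It was lower after injury (-1.73 ± 0.43, edgeR adjusted p = 0.0065), and its enpatoran difference of 1.14 ± 0.45 did not pass (adjusted p = 0.128). Ddx60, a helicase that assists RNA sensing, went from 137, 156 and 130 CPM in NS-Sham to 39.9, 28.8 and 51.8 CPM in NS-I/R and 54.5, 66.9 and 65.7 CPM in Enpa-I/R, with no overlap between groups. The members that did not pass included Ifi204 (0.47, edgeR adjusted p = 0.147) and Ifi207 (0.54, adjusted p = 0.107), whose estimates lay above 0.

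Enpatoran was accompanied by higher levels of 11 of the 43 members in endothelial-like nuclei than in NS-I/R, where 3.35% of all genes were called higher. The median difference was 0.65 over the members and 0.00 over all genes tested. Leaving out NS-I/R replicate 3 raised the 11 to 22, and leaving out any other single I/R library lowered it to 3. The 6 with the largest differences were Ifi27, Ifi203, Dtx3l, Bst2, Oas2 and Ifit2, and the rest were Herc6, Parp14, Ddx60, Xaf1 and Sp100. None was lower by edgeR (3.83% of all genes were), whether adjusted or at an unadjusted p under 0.05, and DESeq2 called 13 higher and 0 lower.

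Bst2, also named tetherin, holds budding virus at the cell surface. It was at 47.9, 44.5 and 44.6 CPM in endothelial-like nuclei of NS-Sham, 14.2, 10.7 and 17 CPM in NS-I/R, and 29.2, 32.3 and 26 CPM in Enpa-I/R. The 3 groups were well separated, with differences of -1.80 ± 0.19 (edgeR adjusted p = 1.28e-05) and 1.11 ± 0.19 (adjusted p = 0.00757). Its enpatoran call held without any one library. Dtx3l, the ubiquitin ligase partner of Parp9, was at 36.9, 37 and 31.5 CPM, 11.8, 9.87 and 13.3 CPM, and 21.2, 31.9 and 22.2 CPM. Its enpatoran difference of 1.15 ± 0.22 (adjusted p = 0.011) was lost only without NS-I/R replicate 2, of the 9 libraries left out in turn.

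Ifi27, an interferon-induced protein of membranes, was at 55.3, 56.9 and 50.4 CPM in NS-Sham, 15.5, 8.22 and 31.6 CPM in NS-I/R, and 49.4, 43.5 and 52.1 CPM in Enpa-I/R. The Enpa-I/R libraries reached into the sham range, with a difference from sham of -0.21 ± 0.27 (edgeR adjusted p = 0.693). The difference of 1.46 ± 0.30 from NS-I/R (adjusted p = 0.0153) was lost without NS-I/R replicate 1, Enpa-I/R replicate 1 or Enpa-I/R replicate 3. Oas2 was at 66.3, 66.9 and 55.7 CPM, 17.5, 16.4 and 36.7 CPM, and 43.7, 42.6 and 52.1 CPM. Ifit2, which binds RNA and blocks translation, was at 26.3, 40.4 and 29.9 CPM, 13.4, 13.2 and 13.3 CPM, and 21.9, 27.8 and 20.9 CPM. Both had the Enpa-I/R libraries above all NS-I/R libraries, and both lost the enpatoran call without any one of NS-I/R replicates 1 and 2 or Enpa-I/R replicates 1 to 3.

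**Figure D3:**
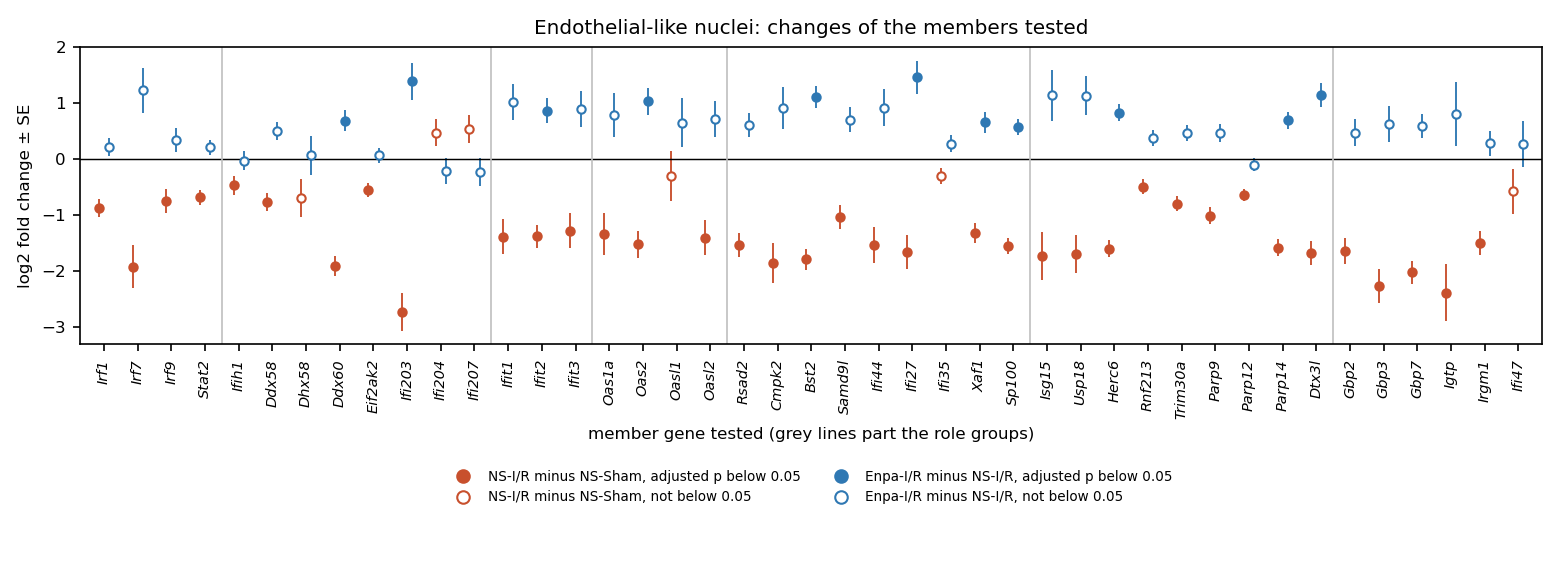
Log2 fold change ± SE of the 43 members tested in endothelial-like nuclei, in the injury comparison (NS-I/R minus NS-Sham) and the enpatoran comparison (Enpa-I/R minus NS-I/R), by role; filled points have an edgeR adjusted p under 0.05. After injury 37 points are filled, all below 0, and with enpatoran 11 are filled, all above 0, none of them a GTPase or a transcription factor. Whether the roles differ in the enpatoran change was not tested.

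Measured against sham, 18 of the 43 members were still lower in endothelial-like nuclei of Enpa-I/R (5.43% of all genes were) and 0 were higher (7.04%) by edgeR's adjusted p, by its unadjusted p under 0.05 or by DESeq2. They were led by Gbp3 (-1.65 ± 0.28, edgeR adjusted p = 0.0018), Igtp (-1.59 ± 0.46), Gbp7 and Ifi203, and the call of Igtp was lost in 4 of the 9 fits with a library left out. The median was -0.57 over the members and 0.00 over all genes. No IFIT or OAS gene was among the 18; 1 IFIT and 2 OAS genes were lower at an unadjusted p under 0.05, and DESeq2 called 0 of either. The count was 9 to 24 when a library was left out.

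The endothelial-like nuclei of the groups came from different clusters: the cluster that held most of the sham nuclei, number 4, had 41.1% of them in sham hearts, 35.7% after injury and 45.7% with enpatoran, while cluster 3 had 32.1%, 1.81% and 7.32%, and cluster 6 had 0.421%, 32.7% and 12.8%. Within cluster 4 the summed member level was 3601 to 3945 CPM in sham libraries, 1553 to 2410 CPM after injury and 2290 to 3117 CPM with enpatoran, so that the last 2 ranges overlapped, unlike those of the class. There 25 members were called lower after injury, and of the 4 transcription factors Irf9 alone kept its call. The share of all genes called lower within cluster 4 is not given, so the count of 25 cannot be set against it. Within cluster 3 the means were 3925 CPM in sham libraries, 2893 CPM in 2 libraries of NS-I/R and 2491 CPM with enpatoran. This order of the I/R groups, opposite to that of the class, rests on 18 and 40 nuclei of NS-I/R replicates 1 and 3. The enpatoran difference was not tested within clusters.

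The members were also lower after injury in macrophage-like nuclei. The NS-Sham libraries summed to 3654 to 4627 CPM, those of NS-I/R to 2119 to 2395 CPM and those of Enpa-I/R to 2861 to 3958 CPM. Of 35 members that passed the filter, 23 were lower in NS-I/R than in NS-Sham (16.5% of all genes) and 1 was higher (17.8%). With enpatoran 12 were higher than in NS-I/R (2.87% of all genes) and 0 were lower (3.44%) by edgeR, with 2 lower at an unadjusted p under 0.05 and 0 by DESeq2. The median changes were -1.08 and 0.92 over the members, and 0.02 and -0.02 over all genes. Without NS-I/R replicate 3 the 12 became 21, without NS-I/R replicates 1 or 2 it was 5 and 6, and without Enpa-I/R replicates 1 or 2 it was 3 and 6. Neutrophil markers summed to 63.4 to 88.8 CPM in macrophage-like nuclei of sham hearts, 255 to 792 CPM after injury and 195 to 246 CPM with enpatoran, and their part in the result was not tested. Macrophage-like nuclei also came from different clusters: cluster 12 held 95.1%, 48.7% and 63.7% of them in the 3 groups, and cluster 13 held 4.86%, 51.3% and 36.3%. Within cluster 12 the summed member level was 3807 to 4705 CPM in sham libraries, 2515 to 2644 CPM after injury and 2802 to 3596 CPM with enpatoran. There 21 members were called lower after injury. For cluster 12, too, the share of all genes called lower is not given, so the 21 cannot be set against it. Cluster 13 had means of 1895 CPM in NS-I/R (1698 to 2259) and 3579 CPM in Enpa-I/R (2961 to 4597). Its sham mean was 2641 CPM, in 2 libraries with 17 and 15 nuclei. The enpatoran difference was not tested within these clusters either.

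Oas2 moved both ways in macrophage-like nuclei. Its level was 296, 258 and 276 CPM in NS-Sham, 45.1, 49.7 and 108 CPM in NS-I/R, and 204, 172 and 174 CPM in Enpa-I/R. The groups were separate, with changes of -2.08 ± 0.25 (edgeR adjusted p = 1.72e-05) and 1.43 ± 0.25 (adjusted p = 0.00404), and both calls held without any one library. Oas1a, a second synthetase, was at 38.3, 47.7 and 27.6 CPM, 8.68, 6.68 and 8.52 CPM, and 40.3, 27.7 and 17.1 CPM, so that Enpa-I/R overlapped sham. Its enpatoran difference of 1.82 ± 0.36 (adjusted p = 0.00876) was lost without Enpa-I/R replicate 1. Usp18, the protease that removes ISG15 and dampens receptor signalling, was at 35.2, 31.8 and 19.3 CPM, 5.21, 4.77 and 13.2 CPM, and 24.2, 29.3 and 20.5 CPM.

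Ddx60 had the lowest adjusted p among members in macrophage-like nuclei after injury. It was at 276, 300 and 339 CPM in NS-Sham, 39.1, 39.2 and 54.2 CPM in NS-I/R, and 117, 87.1 and 83.1 CPM in Enpa-I/R. The fall was -2.83 ± 0.19 (edgeR adjusted p = 6.51e-08), the rise with enpatoran 1.11 ± 0.20 (adjusted p = 0.00446), and Enpa-I/R remained below sham by -1.72 ± 0.18 (adjusted p = 1.34e-05). Ifi203 was at 291, 353 and 287 CPM, 40.8, 18.1 and 89.9 CPM, and 154, 149 and 115 CPM. Ifi206, another PYHIN gene, rested on 61 UMIs in all NS-Sham libraries, 4 UMIs in NS-I/R and 44 UMIs in Enpa-I/R, and 1 NS-I/R library had none, so its fitted change of -4.46 ± 0.77 depends on the prior count.

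Some macrophage-like levels with enpatoran lay at or above sham. Rnf213, a large ubiquitin ligase, was at 227, 293 and 240 CPM in NS-Sham, 113, 88.8 and 173 CPM in NS-I/R, and 349, 253 and 247 CPM in Enpa-I/R. Trim30a, a ubiquitin ligase of the TRIM family, was at 233, 297 and 289 CPM, 105, 103 and 251 CPM, and 423, 320 and 293 CPM. NS-I/R replicate 3 reached the sham range of Trim30a and no other NS-I/R library did. The differences from sham were 0.09 ± 0.21 and 0.28 ± 0.27 (edgeR adjusted p = 0.821 and 0.535). Both genes were chosen after their values were seen. In all, 5 of 35 members were lower in Enpa-I/R than in NS-Sham (8.23% of all genes), namely Ddx60, Ifi203, Samd9l, Irf1 and Herc6. By edgeR 0 were higher (8.65% of all genes were), 1 was at an unadjusted p under 0.05, and DESeq2 called 0.

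The transcription factors in macrophage-like nuclei split. Irf1 fell from 49, 74.8 and 63.4 CPM to 16.5, 17.2 and 32.5 CPM and was at 32.3, 33.4 and 36.4 CPM with enpatoran, below sham by -0.95 ± 0.27 (edgeR adjusted p = 0.0241), a call lost without NS-Sham replicate 2 or 3 or any one Enpa-I/R library. Irf9 was at 52.1, 70.2 and 46.8 CPM, 31.2, 27.7 and 45.7 CPM, and 67.2, 66.7 and 59.2 CPM, and was called lower after injury and higher with enpatoran (0.87 ± 0.23, adjusted p = 0.0329). For Irf9 the injury call was lost without NS-Sham replicate 2 or NS-I/R replicate 1 or 2, and the enpatoran call without NS-I/R replicate 1 or 2 or any one Enpa-I/R library. Irf7 was at 7.66, 17.8 and 24.8 CPM, 7.81, 7.64 and 15.5 CPM, and 31.4, 13 and 29.6 CPM, and its groups overlapped. Stat2, at 84.2, 140 and 85.4 CPM, 67.7, 85 and 94.5 CPM, and 159, 104 and 105 CPM, passed neither test.

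**Figure D4:**
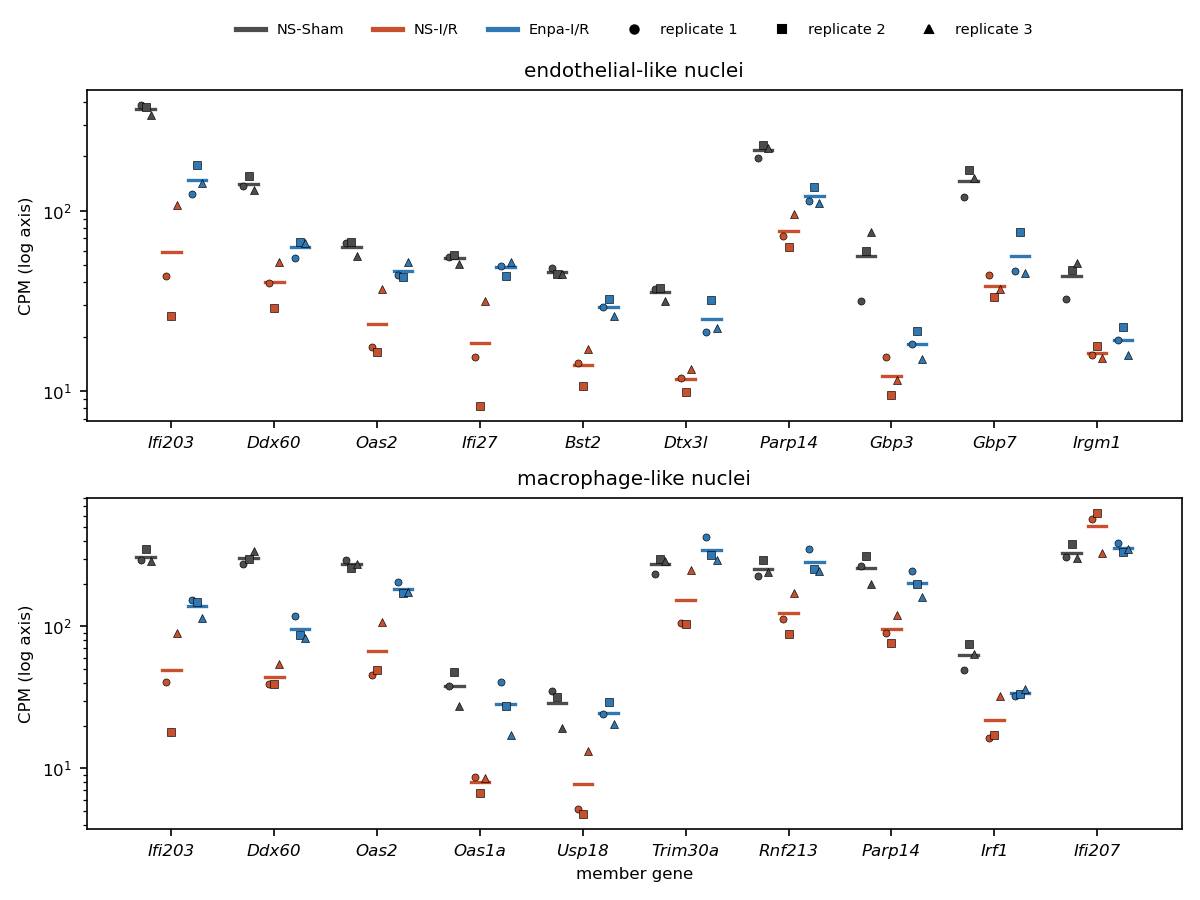
CPM per library, on a log axis, of 10 members in endothelial-like nuclei and 10 in macrophage-like nuclei; each point is 1 library of NS-Sham, NS-I/R or Enpa-I/R. For Ddx60 in macrophage-like nuclei the NS-Sham points lie at 276 to 339 CPM, the NS-I/R points at 39.1 to 54.2 CPM and the Enpa-I/R points at 83.1 to 117 CPM, while for Gbp3 in endothelial-like nuclei the Enpa-I/R points stay near those of NS-I/R.

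In fibroblast cluster 10, pericyte-like and cardiomyocyte-like nuclei, 6 or 7 members each were lower after injury. In cardiomyocyte-like nuclei that count was near the share of all genes. Fibroblast-like nuclei came from different clusters before and after injury, with cluster 10 holding 93.8% of them in sham hearts, 37.1% after injury and 61.3% with enpatoran, and cluster 11 holding 0.326%, 54.8% and 31.4%. Cluster 11 had 1 marker of another class and 0 of fibroblasts among its 10 leading genes, so cluster 10 alone is described gene by gene. Even so, 7 fibroblast markers counted towards the name of cluster 11. Its mean summed member level was 1005 CPM in NS-I/R and 1049 CPM in Enpa-I/R, against 1479 and 1715 CPM in cluster 10. The fit of the whole class, which mixes these clusters, called 26 of 38 members lower after injury (23.5% of all genes) and 5 higher with enpatoran (3.73%). In cluster 10, 7 of 33 members were lower after injury (10.8% of all genes) and 2 were higher (11%). The lower ones were Ifi203, Ifi27, Sp100, Ddx60, Herc6, Ifit2 and Parp14. With enpatoran 0 were called higher by edgeR (0.259% of all genes), 8 were at an unadjusted p under 0.05, and DESeq2 called 1. Without NS-I/R replicate 3 the lower count was 18 and the enpatoran count 12. Ifi203 was at 147, 151 and 155 CPM in NS-Sham, 15.5, 24.7 and 57.6 CPM in NS-I/R, and 79.4, 70.5 and 84.3 CPM in Enpa-I/R, and its enpatoran difference was 1.20 ± 0.29 (edgeR adjusted p = 0.0644). In fibroblast cluster 10 Ifi27 was at 78.9, 76.9 and 76.1 CPM, 10.9, 7.4 and 56.5 CPM, and 71.5, 82.2 and 77.6 CPM. For this gene NS-I/R replicate 3 was far from the other NS-I/R libraries.

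Pericyte-like nuclei had 6 of 24 members lower after injury (12.1% of all genes) and 2 higher (12.3%), and the median change over the members was 0.02. The lower ones were Ifi27, Ifi203, Ddx60, Herc6, Parp9 and Gbp7. Ifi27 was at 50.3, 56.9 and 49.1 CPM in NS-Sham, 3.97, 11.3 and 34.7 CPM in NS-I/R, and 46.7, 62.7 and 49.4 CPM in Enpa-I/R. Ifi203 was at 229, 202 and 208 CPM, 91.3, 74.1 and 101 CPM, and 154, 148 and 153 CPM. These were the 2 members called higher with enpatoran (2.96% of all genes), by 1.69 ± 0.41 and 0.87 ± 0.16 (edgeR adjusted p = 0.025 and 0.00805). The count was 0 to 5 with a library left out, and 5 without NS-I/R replicate 3. The call of Ifi203 was lost only without NS-I/R replicate 2 and that of Ifi27 without NS-I/R replicate 1 or 2 or any one Enpa-I/R library. Against sham, Oasl2 and Rnf213 were higher in Enpa-I/R by 1.42 ± 0.34 and 0.77 ± 0.17 (adjusted p = 0.0207 and 0.0121; 3.15% of all genes were higher), and Parp9 and Ifi203 were lower (2.14%). Each of these 4 calls was lost in 4 to 7 of the 9 fits with a library left out. Neutrophil markers in pericyte-like nuclei summed to 1.24 to 1.64, 89.9 to 217 and 28.1 to 50.8 CPM in the 3 groups.

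Cardiomyocyte-like nuclei had 7 of 30 members lower after injury, near the 22% of all genes, and 2 higher, below their 24.1%. Parp9 was at 48.1, 55.5 and 58.6 CPM in NS-Sham, 18.2, 13.5 and 30.2 CPM in NS-I/R, and 38.3, 36.3 and 28.5 CPM in Enpa-I/R. The fall was -1.41 ± 0.25 (edgeR adjusted p = 0.00139), and NS-I/R replicate 3 exceeded Enpa-I/R replicate 3. Rnf213 was at 29.8, 28.9 and 29.8 CPM, 17, 14.6 and 17.4 CPM, and 18.3, 22.1 and 28.7 CPM. With enpatoran 2 of 30 members were called higher, near the 7.92% of all genes, namely Bst2 and Ifi27. The count was 0 to 7 with a library left out, and 7 without NS-I/R replicate 3. Cardiomyocyte-like nuclei changed cluster with injury: cluster 1 held 74.9%, 7.45% and 34.8% of them in the 3 groups.

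Summed over all nuclei, 28 of 47 members were lower after injury (23.1% of all genes) and 4 were higher (24.7%): Ifi204, Ifi207, Oasl1 and Oas3. In such sums fewer cells of a type and less RNA per cell cannot be told apart. With enpatoran 6 were higher (7.32% of all genes), namely Oas1a, Ddx60, Parp14, Herc6, Parp9 and Xaf1, and 24 without NS-I/R replicate 3 (0 to 24 over the libraries left out in turn). Endocardial endothelial-like nuclei had 12 of 22 members lower after injury (5.63% of all genes), lymphatic endothelial-like nuclei 2 of 20 (8.99%) and smooth muscle-like nuclei 1 of 10 (5.58%). With enpatoran edgeR called 0 higher in these 3 classes (0.305%, 0.633% and 0% of all genes), 7, 3 and 4 were higher at an unadjusted p under 0.05, and DESeq2 called 0, 0 and 1. Counted in either direction, 10 of 47 members differed between Enpa-I/R and NS-Sham over all nuclei (21.2% of all genes), 10 of 38 in the fibroblast-like class (24.3%), 5 of 33 in fibroblast cluster 10 (7.21%) and 1 of 30 in cardiomyocyte-like nuclei (18.8%). In endothelial-like, macrophage-like and pericyte-like nuclei, where the members are given above by direction, 12.5%, 16.9% and 5.29% of all genes were called. Oas3 and Ifit3b did not pass the filter in any of the 5 class or cluster fits, and 23 members passed in all 5.

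Ifi203 and Ddx60 were lower after injury in all 5 fits (endothelial-like, macrophage-like, fibroblast cluster 10, cardiomyocyte-like and pericyte-like). Herc6, Ifi27, Parp14, Parp9 and Sp100 were lower in 4. Only Ifi207 and Ifi204 were called higher in any of them, Ifi207 in 4 and Ifi204 in 3. In the single fits 10.8% to 22% of all genes were called lower and 11% to 24.1% higher. The share of all genes called in as many fits is not given, so these counts cannot be set against it. Ifi207 in pericyte-like nuclei was at 31.4, 48.9 and 31.1 CPM in NS-Sham, 120, 175 and 86.1 CPM in NS-I/R, and 87.4, 53.5 and 47.1 CPM in Enpa-I/R, a rise of 1.54 ± 0.28 with injury (edgeR adjusted p = 0.000746). In macrophage-like nuclei it was at 306, 382 and 303 CPM, 569, 630 and 329 CPM, and 389, 333 and 350 CPM, with NS-I/R replicate 3 inside the sham range. Ifi204 in fibroblast cluster 10 was at 54.2, 54.2 and 39.6 CPM, 79.4, 92.1 and 79.1 CPM, and 102, 74 and 91.6 CPM, and it was the 1 member higher than sham there with enpatoran (0.76 ± 0.16, adjusted p = 0.0105; 3.29% of all genes were higher), a call lost without NS-Sham replicate 3 or Enpa-I/R replicate 1. 

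**Figure D5:**
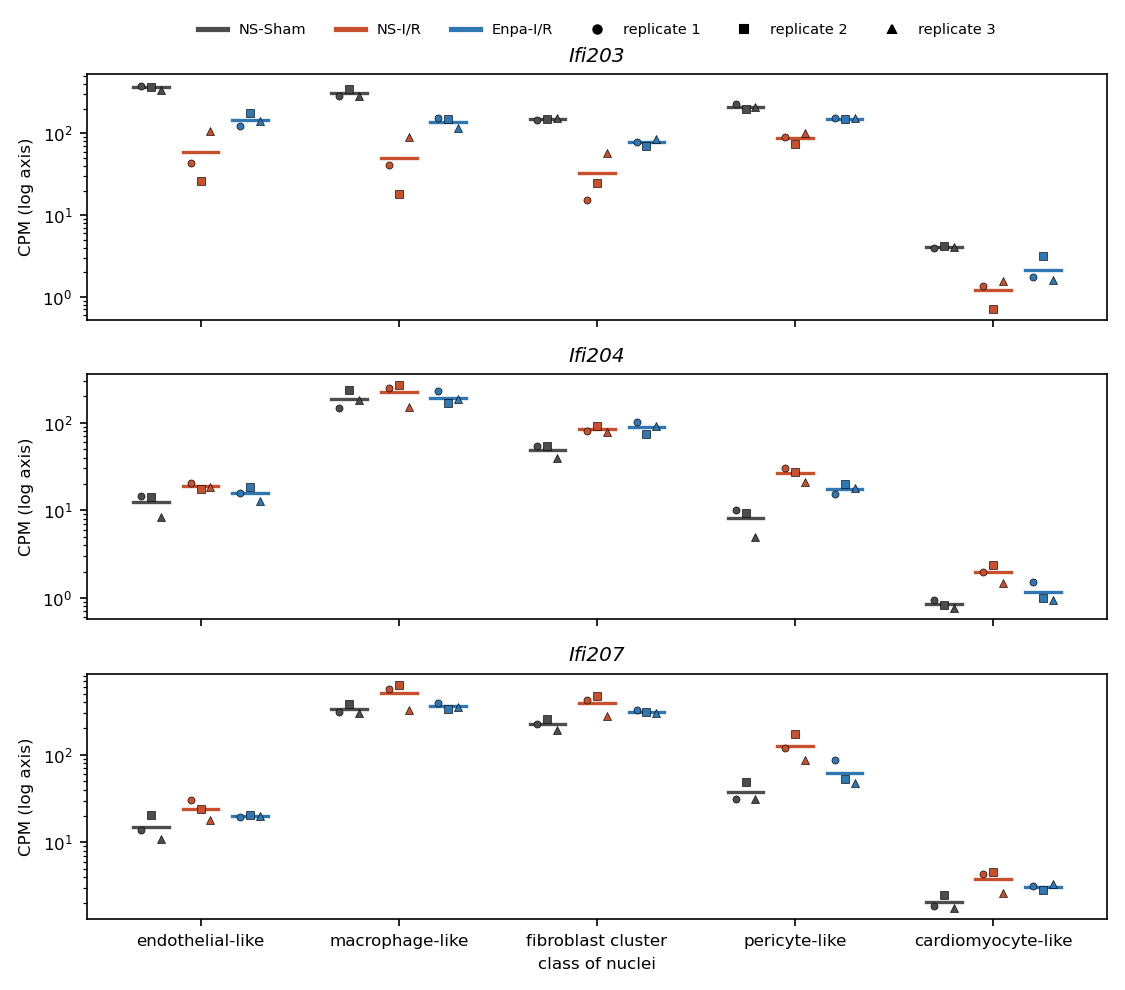
CPM per library of the neighbouring PYHIN genes Ifi203, Ifi204 and Ifi207 in endothelial-like, macrophage-like, fibroblast cluster 10, pericyte-like and cardiomyocyte-like nuclei, coloured by group. Ifi203 is lower after injury in all 5, from 202 CPM or more to 101 CPM or less in pericyte-like nuclei, where Ifi207 goes from 31.1 to 48.9 CPM up to 86.1 to 175 CPM.

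The difference of the injury change between classes was tested directly. Against pericyte-like nuclei, 11 of 46 members had a lower injury change in endothelial-like nuclei (1.34% of all genes did). The count was 4 to 12 when a library was left out. Against cardiomyocyte-like nuclei 9 had a lower change (8.85%), and 6 to 13 with a library left out. Against macrophage-like nuclei, where Gbp7 was not called lower, its change was lower in endothelial-like nuclei, by -2.08, and Ddx60 fell less there, by 0.89. These were 1 of 46 members in each direction, below the 4.89% and 5.32% of all genes. Against the fibroblast-like class, whose clusters changed with injury, Ifi203 and Rsad2 had a lower change in endothelial-like nuclei, by -1.57 and -1.86. These 2 of 46 members were near the 4.67% of all genes. Stat2, Trim30a and Parp14 had a lower change in endothelial-like nuclei than in both cardiomyocyte-like and pericyte-like nuclei.

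Single nuclei gave the same order. After each nucleus was thinned to 1000 UMIs, 91.4% ± 2.37 of endothelial-like nuclei in NS-Sham had at least 1 member UMI, 72% ± 5.19 after injury and 80.6% ± 0.841 with enpatoran. Without thinning the shares were 96.1%, 83.2% and 88.8%. Nuclei with fewer UMIs were left out, 665, 671 and 718 in the 3 groups. The exact two-sided permutation test gave p = 0.1 for both differences, the smallest value that 3 against 3 libraries allow. In cardiomyocyte-like nuclei, the class with the lowest levels, the thinned shares were 20.6%, 14% and 15.5%, though no class is known to lack all members. In macrophage-like nuclei they were 92.6%, 80.7% and 86.1%, and 97.7%, 90.8% and 95.1% without thinning, with p = 0.1 by the exact permutation test for both differences. Cardiomyocyte-like nuclei are deeper, with a median of 6413 to 10546.5 UMIs per library before thinning, against 1448 to 2051 UMIs in endothelial-like nuclei.

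The rest of the pathway, in 7 lists of genes outside the set, moved in both directions in endothelial-like nuclei. Of all genes, 18.4% were called higher and 17.1% lower there after injury, and 3.35% higher with enpatoran. None of the 11 interferon genes listed passed the filter. Over all nuclei of the sham, saline I/R and enpatoran libraries, Ifnb1 had 0, 3 and 1 UMIs, and Ifng had 1, 1 and 1. Such counts allow no comparison. Of 6 receptor genes, 2 were lower after injury: Ifnar1, a chain of the type I receptor, at means of 63.2, 38.8 and 47.8 CPM in the 3 groups, and Il10rb, a chain of the type III receptor, at 75.0, 48.3 and 68.1 CPM.

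Of the signalling genes, Irf8 rose from 4.14 to 33.6 CPM, and Jak2 rose from 93.1 to 239 CPM and was at 143 CPM with enpatoran. Of 11 upstream sensors and adaptors 2 fell, near the 17.1% of all genes, among them Tlr3. In the same list 6 rose (18.4% of all genes), led by Tmem173, which encodes STING, from 11.6 to 33.2 CPM, and Myd88, from 6.17 to 15.4 CPM. Socs3, an inhibitor of cytokine receptors, rose from 4.98 to 51.4 CPM and was at 21.6 CPM with enpatoran. Of 47 other interferon-inducible genes, 30 fell (17.1% of all genes) and 3 rose (18.4%) with injury. With enpatoran 5 were higher (3.35%), among them the PYHIN gene Mndal at 428, 88.2 and 177 CPM in the 3 groups. Of 14 antigen presentation genes 7 fell (17.1% of all genes), led by the immunoproteasome subunits Psmb9 and Psmb10. In that list 0 rose by edgeR (18.4% of all genes did), at an unadjusted p under 0.05 or by DESeq2.

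In macrophage-like nuclei 22 of 45 other interferon-inducible genes fell (16.5% of all genes), 4 rose (17.8%) and 8 were higher with enpatoran (2.87%). Of 17 antigen presentation genes 8 fell (16.5% of all genes), led by Ciita, the master regulator of class II genes, at 211, 40.0 and 67.5 CPM. Unc93b1, which carries TLR7 to the endosome, was at 489, 157 and 267 CPM, with changes of -1.69 after injury and 0.77 with enpatoran (edgeR adjusted p = 0.012). Tlr7 itself was at 206, 124 and 132 CPM there and at 1.13, 1.51 and 1.39 CPM in endothelial-like nuclei.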

How the data were processed

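Nuclei were isolated from about 50 mg of flash-frozen, powdered heart per library and sequenced with the 10x Genomics 3′ chemistry, per the labels' protocols. The values are raw UMI counts per gene and nucleus as deposited by the authors, with no normalization. The matrices name Cell Ranger 8.0.0, per the file headers, while the submitters' processing notes name Cell Ranger 6.1.1, Seurat, GRCm39 and GRCh38. The build behind the counts and the handling of introns are not given in the sources used here. Promoter sequences are RefSeq's on GRCm38.p6, matched by symbol.

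Nuclei with at least 500 genes and at most 5% mitochondrial UMIs were kept, 41875 of 56766. Scrublet scores were ranked, and the top 0.8% per 1000 barcodes was removed, 133 to 538 per library. Clustering (scanpy 1.11.5, 2000 variable genes without the members, 30 components, 15 neighbours, Leiden resolution 1) gave 25 clusters, named by at least 3 markers, with 1 unnamed. Summed UMIs per library and class entered edgeR 4.0.16, with its quasi-likelihood test, TMM scaling and the filterByExpr low-count filter (9 libraries in a fit, threshold 0.05). Each SE is the size of the log2 change divided by the root of F. Comparisons between classes had the library as a block. On simulated counts for Enpa-I/R minus NS-I/R, with 200 genes changed by a log2 of 1, the test recovered 59.5% in endothelial-like nuclei (11668 genes), 34% in macrophage-like nuclei (10077 genes) and 32% in cardiomyocyte-like nuclei (13695 genes), with 1 to 10 unchanged genes called.

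The members, the role groups and the 7 pathway lists were chosen with earlier results of these data known. Values of every library are printed for Irf1, Irf7, Irf9 and Stat2 and for up to 6 called members per class and contrast with the largest change at a mean of at least 10 CPM, and up to 3 called genes per pathway list are named. The result of 1 signalling gene, and with it the count of its list, is not reported here. Other members with values are said to be chosen after the data were seen or stand beside a count. Same-numbered libraries did not deviate together (correlations from -0.134 to 0.105), so numbers were not taken as pairs. Alternatives were DESeq2 1.42.0, other scalings, no low-count filter, the 6 libraries of a contrast, a replicate block, each library left out, and other limits for nuclei and clusters. The fibroblast cluster, the 3 small classes and the sums without neutrophil-like nuclei were added after the data were seen.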

Additional observations from a re-analysis of the deposited data

Results flagged for a closer look

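The injury change of 22 gene and class pairs differed between endothelial-like nuclei and macrophage-like, cardiomyocyte-like or pericyte-like nuclei by the test of the difference itself (edgeR's quasi-likelihood test with Benjamini-Hochberg adjustment over all genes). Each value is the change in endothelial-like nuclei minus that in the other class, on the log2 scale, so a negative value is a lower change in endothelial-like nuclei. The fibroblast-like class, which mixes clusters, is left out here, and its 2 differences are given above.

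Against pericyte-like nuclei all 11 differences were below 0. The largest were of Oasl1 at -4.91 (edgeR adjusted p = 0.0167), the nucleotide kinase Cmpk2 at -2.73 (0.0466) and Oasl2 at -1.82 (0.0128). Oasl1 passed the low-count filter in 2 of the 5 class or cluster fits and was called lower after injury in 0. Cmpk2 passed in 1, so the differences of Oasl1 and Cmpk2 rest on low counts. The transcription factors Irf1, Irf9 and Stat2 differed by -1.66 (0.00886), -1.42 (0.00259) and -0.99 (0.0247). Parp14 had the lowest adjusted p, with a difference of -1.58 (1.25e-05), and Trim30a differed by -1.48 (0.0152). Ifi203 differed by -1.36 (0.0434), Sp100 by -1.10 (0.00352) and Ifi207 by -0.96 (0.0465).

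Against cardiomyocyte-like nuclei all 9 were below 0. They were Oasl1 at -3.96 (edgeR adjusted p = 0.00918), Igtp at -2.71 (0.011), Herc6 at -1.62 (0.000871), Ifit2 at -1.55 (0.00259) and Ddx58, which encodes the RNA sensor RIG-I, at -1.43 (0.000552). The others were Irgm1 at -1.26 (0.0275), Trim30a at -1.08 (0.00373), Stat2 at -0.87 (0.00769) and Parp14 at -0.75 (0.0304). Many of these genes have low UMI counts in cardiomyocyte-like nuclei.

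Against macrophage-like nuclei the 2 differences had opposite signs, with Gbp7 at -2.08 (edgeR adjusted p = 5.81e-05) and Ddx60 at 0.89 (0.0211). With 1 of 46 members called in each direction, members were called no more often than all genes (4.89% lower and 5.32% higher).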

How the results depend on the processing

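Counts of members lower after injury stayed within 1.5 times in endothelial-like, macrophage-like and pericyte-like nuclei under every alternative run, and counts higher with enpatoran did not. Of the calls on named genes, 971 were kept and 93 lost over the alternatives other than leaving out a library, and 718 were kept and 227 lost with a library left out. Changes of a log2 of 1 can be missed at this depth and spread: the simulated recovery was 59.5% in endothelial-like, 34% in macrophage-like and 32% in cardiomyocyte-like nuclei. The causes of the changes below were not tested.

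Members higher with enpatoran over all nuclei numbered 6 as reported, 1 with library totals without TMM, 12 with DESeq2, 0 with the 6 libraries of the contrast, 3 with a minimum of 1000 genes and 11 without neutrophil-like and unnamed nuclei. With the 6 libraries only, the counts were 5 in endothelial-like (11 as reported), 0 in fibroblast-like (5), 0 in cardiomyocyte-like (2) and 1 in pericyte-like nuclei (2). With no low-count filter they were 21 in endothelial-like, 20 in macrophage-like (12), 17 in fibroblast-like nuclei and 4 in fibroblast cluster 10 (0), where 13 in place of 7 were lower after injury. DESeq2 gave 9 in fibroblast-like nuclei and 1 in fibroblast cluster 10. With doublets kept there were 8 in fibroblast-like and 5 in cardiomyocyte-like nuclei, where 13 were lower after injury, and 14 with a mitochondrial limit of 20% (7). Library totals without TMM left 2 of 4 calls against sham in pericyte-like nuclei.

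The replicate number as a block, where the numbers do not pair the libraries, gave 1 member higher with enpatoran over all nuclei, 1 in cardiomyocyte-like nuclei and 1 in fibroblast cluster 10, and moved no other count by over 1.5 times.

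Leaving out 1 library at a time, members higher with enpatoran ranged over all nuclei from 0 to 24, in endothelial-like nuclei from 3 to 22, macrophage-like 3 to 21, fibroblast-like 0 to 21, fibroblast cluster 10 0 to 12, cardiomyocyte-like 0 to 7 and pericyte-like 0 to 5. The highest values came without NS-I/R replicate 3. Members lower after injury ranged from 4 to 10 in cardiomyocyte-like nuclei and 3 to 18 in fibroblast cluster 10. Calls against sham with enpatoran ranged from 6 to 17 over all nuclei, 9 to 24 in endothelial-like, 6 to 14 in fibroblast-like, 0 to 3 in cardiomyocyte-like, 1 to 7 in macrophage-like, 0 to 4 in pericyte-like nuclei and 1 to 8 in fibroblast cluster 10. Differences of the injury change from endothelial-like nuclei ranged from 1 to 4 against macrophage-like, 4 to 12 against pericyte-like and 1 to 4 against fibroblast-like nuclei.

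Without thinning, the share of nuclei with a member UMI changed after injury by -12.9 percentage points in endothelial-like, -9.42 in fibroblast-like, -6.86 in macrophage-like and -5.52 in pericyte-like nuclei, and with enpatoran by 7.06 in fibroblast-like and 4.04 in cardiomyocyte-like nuclei. The thinned enpatoran difference in pericyte-like nuclei ranged from -0.512 to 4.04 with a library left out.

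Apart from that share, reversals were of transcription factors whose reported values passed no test. With library totals without TMM the log2 values were -0.045 for Irf1 with enpatoran over all nuclei, 0.037 for Irf9 after injury and 0.11 for Stat2 against sham with enpatoran in fibroblast-like nuclei, and 0.093 for Irf9 after injury in fibroblast cluster 10. With no low-count filter Stat2 was at 0.011 in fibroblast-like nuclei and -0.015 in fibroblast cluster 10. With a mitochondrial limit of 20%, Stat2 in fibroblast-like nuclei was at 0.0020, and Irf1 in cardiomyocyte-like nuclei at -0.74 after injury and 0.16 with enpatoran. With doublets kept the latter was at -0.37 after injury. With a minimum of 1000 genes, Stat2 in cardiomyocyte-like nuclei was at 0.012, and in pericyte-like nuclei Irf1 and Irf9 with enpatoran at 0.14 and 0.12. Irf1 there was at 0.035 with Leiden resolution 2 and 0.070 with interferon genes allowed in clustering.

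With a library left out, Irf1 with enpatoran ranged from -0.13 to 0.17 over all nuclei, -0.33 to 0.16 in pericyte-like nuclei and -0.064 to 0.82 in fibroblast cluster 10. After injury it ranged from -0.079 to 0.15 in cardiomyocyte-like nuclei and -0.80 to 0.17 in fibroblast cluster 10, and against sham from -0.42 to 0.17 in fibroblast-like nuclei and -0.17 to 0.45 in fibroblast cluster 10. Irf9 ranged from -0.29 to 0.032 after injury in fibroblast-like nuclei, -0.33 to 0.11 in fibroblast cluster 10, and -0.48 to 0.061 with enpatoran in pericyte-like nuclei. Stat2 against sham ranged from -0.14 to 0.073 in fibroblast-like, -0.17 to 0.097 in cardiomyocyte-like and -0.071 to 0.48 in macrophage-like nuclei, and from -0.072 to 0.15 after injury in fibroblast cluster 10.

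Library totals without TMM moved the median of all genes after injury by over 0.1, to 0.11 in endothelial-like nuclei, 0.13 over all nuclei and 0.15 in fibroblast-like nuclei. The share of called genes that were higher then went from 51.8% to 61.2% in endothelial-like nuclei, 51.7% to 61.9% over all nuclei and 50.4% to 70.7% in pericyte-like nuclei, and with enpatoran from 46.7% to 33.1%, 43.2% to 25.5% and 50.9% to 27.6%.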

Other observations

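Neutrophil-like and unnamed nuclei, which were rare or missing in sham hearts, also carried the members. Neutrophil-like nuclei had a summed member level of 1327 to 2299 CPM in the NS-I/R libraries and 2505 to 3170 CPM in the Enpa-I/R libraries, which did not overlap. Nuclei of the 1 unnamed cluster, which was led by heat shock genes and made up 0.628% to 5.66% of nuclei in NS-I/R and 0% in NS-Sham, had 1974 to 2510 CPM in NS-I/R. Neither has a sham level to compare with.

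Endocardial endothelial-like nuclei averaged 2393 CPM of summed members in NS-Sham, 1212 CPM in NS-I/R and 1561 CPM in Enpa-I/R. Lymphatic endothelial-like nuclei averaged 1409, 1539 and 1781 CPM, and smooth muscle-like nuclei 680, 496 and 671 CPM.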
